A study of Mus musculus with 4 samples.

Results

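Imprinted genes are expressed mainly from the copy inherited from 1 parent, and many of them act on the growth of the embryo and placenta. The 10 imprinted growth-control genes described here are H19, Dlk1, Plagl1, Grb10, Ndn, Mest, Peg3, Peg10, Sgce and Impact. They were chosen by name, as every gene probe on the arrays that carries 1 of these gene names, which gave 18 of 41174 gene probes and 10 of 27597 genes.

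The data are 4 two-colour Agilent arrays of mouse embryonic fibroblasts (MEFs), the mixed mesenchymal cells that grow out of a dissociated embryo, in log growth and without any treatment. CycG1-/- MEFs (G1KO) were hybridised against a CycG1+/+ wild-type culture, here WT1, and CycG2-/- MEFs (G2KO) against a CycG2+/+ wild-type culture, here WT2. The strain is given as C57BL/6J for all cultures, although the source names of the G2 pair read C57BL/7J. The CycG1-/- allele lacks all protein-coding exons of Ccng1, and cyclins G1 and G2, the products of Ccng1 and Ccng2, take part in the response to DNA damage. Each genotype is 1 RNA, and each pair was hybridised on 2 arrays with the dyes exchanged, so n = 1 culture per genotype and the SDs below are the technical spread of the 2 arrays. No test between genotypes was possible. A gene was called higher or lower where its ratio was at least 2-fold in the same direction on both arrays of a pair, a description of these RNAs rather than of the genotypes, and a tested gene was well above background on both arrays in at least 1 of the pair's RNAs.

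In G1KO, the brightest Ccng1 probe was 102-fold lower than in WT1 (log2 ratio -6.67 ± 0.13, SD of 2 arrays). The other Ccng1 probe was 31.2-fold lower, and both probes stayed well above background in G1KO. The only Ccng2 probe was not reduced in the RNA that carries the G2KO label (log2 ratio 0.09 ± 0.27, SD of 2 arrays), so it is written below as the G2KO-labelled RNA and every direction given for it rests on that label. Which part of Ccng2 the CycG2-/- allele lacks is not given in the sources used here, and a probe outside that part checks nothing. Ccng1 was 6.35-fold higher in the G2KO-labelled RNA than in WT2. Its mean log2 levels there were 13.81 and 11.14, against 13.67 in WT1. Xist, the RNA that coats the silenced X, was higher in both knockouts (log2 ratios 7.54 and 7.24), and the Y-linked Eif2s3y, not well above background in either knockout, was at least 82.4-fold and 51.3-fold lower, so sex and genotype cannot be told apart. All 12 fibroblast markers examined were detected in all 4 cultures. Between 25366 and 27757 of 43379 gene spots per channel were well above background, and all 4 arrays lay on 1 slide.

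Imprinting is set in the germ line by methylation of CpG pairs, the cytosine-guanine steps of the DNA, in control regions that then keep 1 parental copy silent. H19, a non-coding RNA, and Grb10 in most tissues are expressed from the maternal copy and restrain growth. The other 8 genes are expressed from the paternal copy. Among these, Dlk1 is a membrane-bound relative of the Notch ligands that keeps preadipocytes undifferentiated, and Plagl1 (Zac1) is a zinc-finger transcription factor that restrains the cell cycle and acts on other imprinted genes. Grb10 is an adaptor protein that damps signalling from the insulin and Igf1 receptors, and Ndn (necdin) is a growth-restraining protein known from post-mitotic neurons. Mest is a hydrolase-like protein linked to fat tissue expansion, Peg3 a zinc-finger protein, Peg10 a protein derived from a retrotransposon and needed by the placenta, Sgce (epsilon-sarcoglycan) a membrane protein, and Impact a regulator of the translation kinase Gcn2.

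The probe sequences were not used here. Promoter stretches are shown for the called members that move furthest and are in the RefSeq promoter table (build GRCm38.p6), each as the 250 bases before an annotated start, 5′ to 3′ on the gene's strand, with CpG pairs, where DNA methylation sits, in capitals.
Plagl1, chr10:13090582-13090831, plus strand: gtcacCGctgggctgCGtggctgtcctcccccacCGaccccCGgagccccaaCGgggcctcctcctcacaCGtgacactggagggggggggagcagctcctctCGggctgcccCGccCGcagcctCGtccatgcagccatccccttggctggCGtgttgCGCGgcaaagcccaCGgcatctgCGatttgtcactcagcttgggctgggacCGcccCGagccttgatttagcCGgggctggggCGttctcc
Dlk1, chr12:109452573-109452822, plus strand: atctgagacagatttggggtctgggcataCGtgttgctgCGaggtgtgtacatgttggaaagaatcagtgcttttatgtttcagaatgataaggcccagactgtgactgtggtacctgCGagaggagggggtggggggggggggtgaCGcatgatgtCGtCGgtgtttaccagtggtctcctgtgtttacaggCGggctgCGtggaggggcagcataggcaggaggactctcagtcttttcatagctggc
Grb10, chr11:12037421-12037670, minus strand: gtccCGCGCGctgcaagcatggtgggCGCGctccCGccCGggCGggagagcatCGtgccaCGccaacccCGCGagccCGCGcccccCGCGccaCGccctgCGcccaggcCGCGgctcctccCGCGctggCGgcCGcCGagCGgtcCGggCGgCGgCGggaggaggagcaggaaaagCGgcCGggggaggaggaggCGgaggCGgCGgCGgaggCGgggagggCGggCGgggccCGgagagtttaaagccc
Ndn, chr7:62348027-62348276, plus strand: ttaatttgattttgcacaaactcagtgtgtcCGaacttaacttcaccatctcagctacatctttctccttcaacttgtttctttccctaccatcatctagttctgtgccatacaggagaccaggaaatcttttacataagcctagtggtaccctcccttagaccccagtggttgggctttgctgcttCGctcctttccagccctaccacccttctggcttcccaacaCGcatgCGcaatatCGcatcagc

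For the members, promoters on chromosome 18, where Impact lies, were left out. The rest of the table held 9 promoters of 6 members, namely Plagl1, Dlk1, Ndn, Peg3, 2 of Grb10 and 3 of Mest. CpG content differed widely among them. The upstream Grb10 promoter held 40 CpG pairs in 250 bases, a count reached by 1.31% of the 32851 promoters in the table. Plagl1 held 19, reached by 19.7%, while Dlk1 held 8 and Ndn 5, against a median of 6 over all promoters. The letters GGGGCCCC, the core of the GC-rich sequence that Plagl1 binds, were searched on both strands and found in 1 of the 9 member promoters, that of Peg3, and in 0.889% of all promoters. The TATA box letters TATAAA were in 0 of the 9 and in 12.4% of all promoters. The letters CACGTG, an E-box, were in 1 of the 9, that of Plagl1, and in 6.02% of all promoters. These matches describe the windows and no binding or methylation was measured.

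In G1KO, 4 of the 10 members were called against WT1. H19, Dlk1 and Plagl1 were higher and Mest was lower. Over all 16534 genes tested by their brightest probe, 6.96% were called, 2.47% higher and 4.49% lower. In the G2KO-labelled RNA, 5 of the 10 were called against WT2, with Ndn higher and H19, Dlk1, Plagl1 and Grb10 lower. Over all 16487 genes tested there, 7.58% were called, 2.73% higher and 4.85% lower. The median log2 ratio of the members was 0.63 in G1KO, where that of all genes was 0.00. It was -0.57 in the G2KO-labelled RNA, where that of all genes was -0.02. H19, Dlk1 and Plagl1 were called in opposite directions in the 2 comparisons, 3 of 10 members, against 1.13% of the 15658 genes tested in both. With median centring of the arrays in place of loess, only Plagl1 was called in opposite directions (0.492% of all genes), and with the median of a gene's detected probes only H19 and Plagl1 (0.967%). The comparisons share no RNA, and the difference between them was not tested, since each has 1 culture per genotype.

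**Figure D1:**
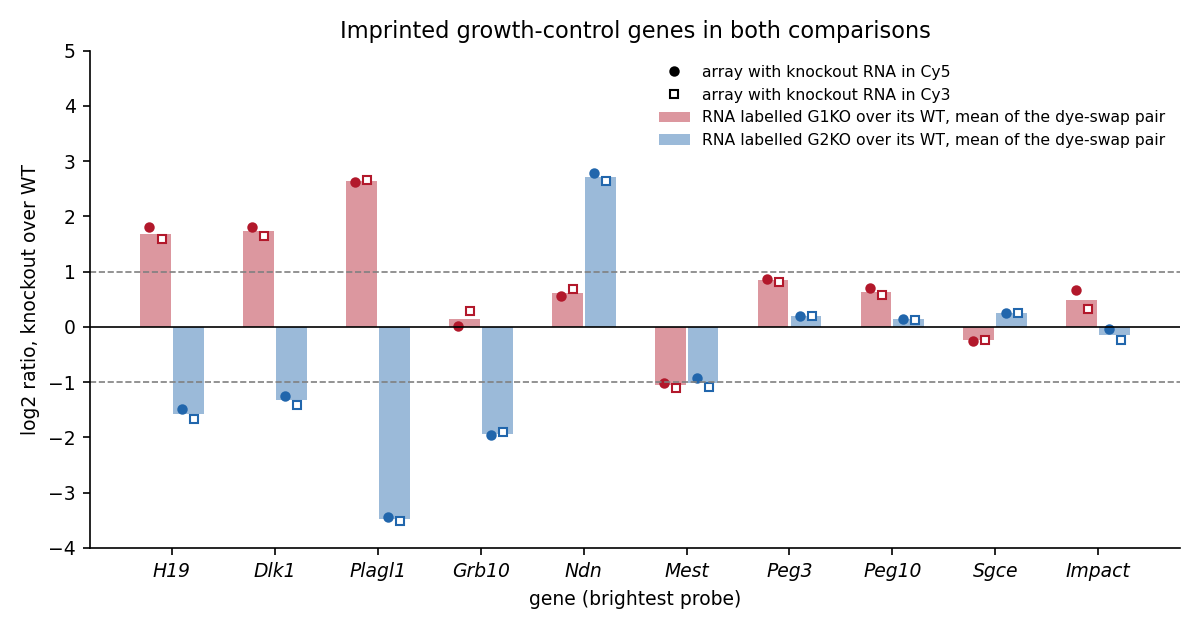
Log2 ratio of each member's brightest probe (y axis) for G1KO over WT1 (red) and the G2KO-labelled RNA over WT2 (blue). Bars are the mean of the dye-swap pair, symbols the 2 arrays, and dashed lines mark 2-fold; H19, Dlk1 and Plagl1 lie above the upper line in red and below the lower line in blue.

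Plagl1 was called in both comparisons with every alternative setting. Its brightest probe (chr10:12821672-12821731, mouse build mm8, plus strand) had log2 levels of 10.42 and 10.18 in G1KO (Cy5, then Cy3) and 7.52 and 7.78 in WT1. In the G2KO-labelled RNA the levels were 9.04 and 8.94, and in WT2 they were 12.45 and 12.48. The 4 cultures did not overlap, and the order was WT2, G1KO, G2KO, WT1 from high to low. Plagl1 was 6.25-fold higher in G1KO (log2 ratio 2.64 ± 0.02, SD of 2 arrays) and 11.1-fold lower in the G2KO-labelled RNA (-3.47 ± 0.05, SD of 2 arrays). A dimmer Plagl1 probe 5′ of it (chr10:12819862-12819921, mm8) had the same signs but smaller ratios, 0.34 in G1KO, not called, and -1.13 in the G2KO-labelled RNA, called. WT1 was well above background on 1 of 2 arrays at that probe, and the scanner software's own log2 ratios there were 2.12 and -2.98.

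H19 lies beside Igf2 on distal chromosome 7 and was followed by 2 probes. At the brighter probe (chr7:142385254-142385313, mm8, minus strand) the log2 levels were 9.65 and 9.47 in G1KO and 7.89 and 7.85 in WT1. The G2KO-labelled RNA gave 8.41 and 8.48, and WT2 gave 10.14 and 9.89. WT2 and G1KO were thus the high cultures and WT1 the low one, with no overlap between neighbours in the order. H19 was 3.24-fold higher in G1KO (1.69 ± 0.15, SD of 2 arrays) and 2.97-fold lower in the G2KO-labelled RNA (-1.57 ± 0.13, SD of 2 arrays). The other probe gave 1.69 and -1.79, and was called in both.

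Dlk1 had very different levels in the G1 and the G2 pair. The brighter probe (chr12:109908264-109908323, mm8, plus strand) read 14.99 and 15.19 in G1KO, 13.54 and 13.19 in WT1, 8.71 and 8.63 in the G2KO-labelled RNA, and 10.03 and 9.95 in WT2. The distance from the highest to the lowest culture was 6.42 on the log2 scale. Dlk1 was therefore high in both cultures of the G1 pair and low in both cultures of the G2 pair, and the gap between the pairs exceeded the gap within either pair. The knockout ratio was 3.31-fold higher in G1KO (1.73 ± 0.11, SD of 2 arrays) and 2.51-fold lower in the G2KO-labelled RNA (-1.33 ± 0.11, SD of 2 arrays). At the dimmer probe the ratio was 1.63 in G1KO, called, and -0.74 in the G2KO-labelled RNA, not called. There the scanner software's own log2 ratio was -1.37. Of the markers of preadipocytes and adipocytes, Pparg, Cebpa and Fabp4 were detected in all 4 cultures and Adipoq in none, and in the G2KO-labelled RNA Fabp4, a fatty-acid carrier, was called lower (-3.53) while Pparg (0.49) and Cebpa (0.41) were not called. The part of these genes in the Dlk1 ratio was not tested.

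Grb10 was called in 1 comparison. Its brightest probe (chr11:11830965-11831024, mm8, minus strand) read 14.33 and 14.45 in G1KO and 14.17 and 14.31 in WT1, against 13.20 and 13.06 in the G2KO-labelled RNA and 14.97 and 15.14 in WT2. The values of G1KO and WT1 were close together, while the G2KO-labelled RNA was the lowest of the 4 and WT2 the highest. Grb10 was 3.81-fold lower in the G2KO-labelled RNA (-1.93 ± 0.03, SD of 2 arrays) and 0.15 ± 0.18 (SD of 2 arrays) on the log2 scale in G1KO. Its 3 probes, spread over the gene, gave -1.93, -2.04 and -1.40 in the G2KO-labelled RNA, all called, and between 0.12 and 0.23 in G1KO.

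Ndn was the only member called higher in the G2KO-labelled RNA. Its single probe (chr7:62227911-62227970, mm8, plus strand) read 9.99 and 10.04 in that RNA and 7.40 and 7.21 in WT2. In the G1 pair it read 9.70 and 9.92 in G1KO and 9.24 and 9.14 in WT1. WT2 was the low culture, and the other 3 lay within 1 log2 unit of each other. The ratio was 6.57-fold higher in the G2KO-labelled RNA (2.72 ± 0.10, SD of 2 arrays) and 0.62 ± 0.08 (SD of 2 arrays) on the log2 scale in G1KO, not called. Ndn was well above background in all 4 cultures, and some markers of neural and glial cells were also higher in the G2KO-labelled RNA. Sox2, a transcription factor of neural progenitors, had a mean log2 level of 12.35 there, against 6.75 in WT2, 5.93 in G1KO and 5.79 in WT1. Gpm6b, a membrane glycoprotein of neurons and glia, had 13.53, against 7.62, 8.76 and 6.51. Both were called higher in the G2KO-labelled RNA (5.59 and 5.90), while Sox10 (-0.08) and Tubb3 (-0.73) were not called. Their part in the Ndn ratio was not tested.

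Mest moved the same way in both pairs, at the edge of the 2-fold line. Its probe (chr6:30698289-30698348, mm8, plus strand) read 9.12 and 9.14 in G1KO and 10.25 and 10.13 in WT1, and 10.23 and 10.17 in the G2KO-labelled RNA and 11.25 and 11.16 in WT2. The G2KO-labelled RNA and WT1 overlapped, WT2 was the high culture and G1KO the low one. The ratio was -1.06 ± 0.07 (SD of 2 arrays) in G1KO, called, with -1.01 and -1.10 on the 2 arrays. It was -1.01 ± 0.11 (SD of 2 arrays) in the G2KO-labelled RNA, not called because 1 array gave -0.93. These 2 ratios differ by less than the spread of the arrays, so the call in 1 comparison alone does not set them apart.

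Peg3 was not called in either comparison, yet it separated the pairs at all but its dimmest probe. The brightest of its 3 probes (chr7:6311815-6311874, mm8, minus strand) read 11.68 and 11.72 in G1KO and 10.90 and 10.81 in WT1, but 6.78 and 6.84 in the G2KO-labelled RNA and 6.64 and 6.59 in WT2. The levels of the G2 pair were close to the lowest level called well above background on those channels (5.74 to 6.13), and the ratio there was 0.20. For the G2 pair at this probe, the scanner software's own log2 ratio was 0.7. The G1KO ratio was 0.85 ± 0.03 (SD of 2 arrays), with 0.75 at the next probe and 0.08 at the dimmest.

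Peg10 (chr6:4709867-4709926, mm8, plus strand) was dim in all 4 cultures. It was not well above background in WT1 on either array, and in G1KO it was at least 1.56-fold higher, with measured log2 levels of 6.78 and 6.13 (means of 2 arrays). The scanner software's own log2 ratio at this probe was 3.48, so its size depends on how background is handled. In the G2KO-labelled RNA the Peg10 ratio was 0.14 ± 0.03 (SD of 2 arrays). Sgce, which shares a cluster with Peg10 on proximal chromosome 6, was bright in all 4 cultures, from 13.22 to 14.28 over the 8 channels, and not called, with ratios of -0.24 ± 0.01 in G1KO and 0.25 ± 0.00 in the G2KO-labelled RNA (SD of 2 arrays). Its second probe gave -0.26 and 0.34. Impact (chr18:13135832-13135891, mm8, plus strand), from 11.86 to 12.81, was not called either, at 0.49 ± 0.24 and -0.14 ± 0.15 (SD of 2 arrays).

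**Figure D2:**
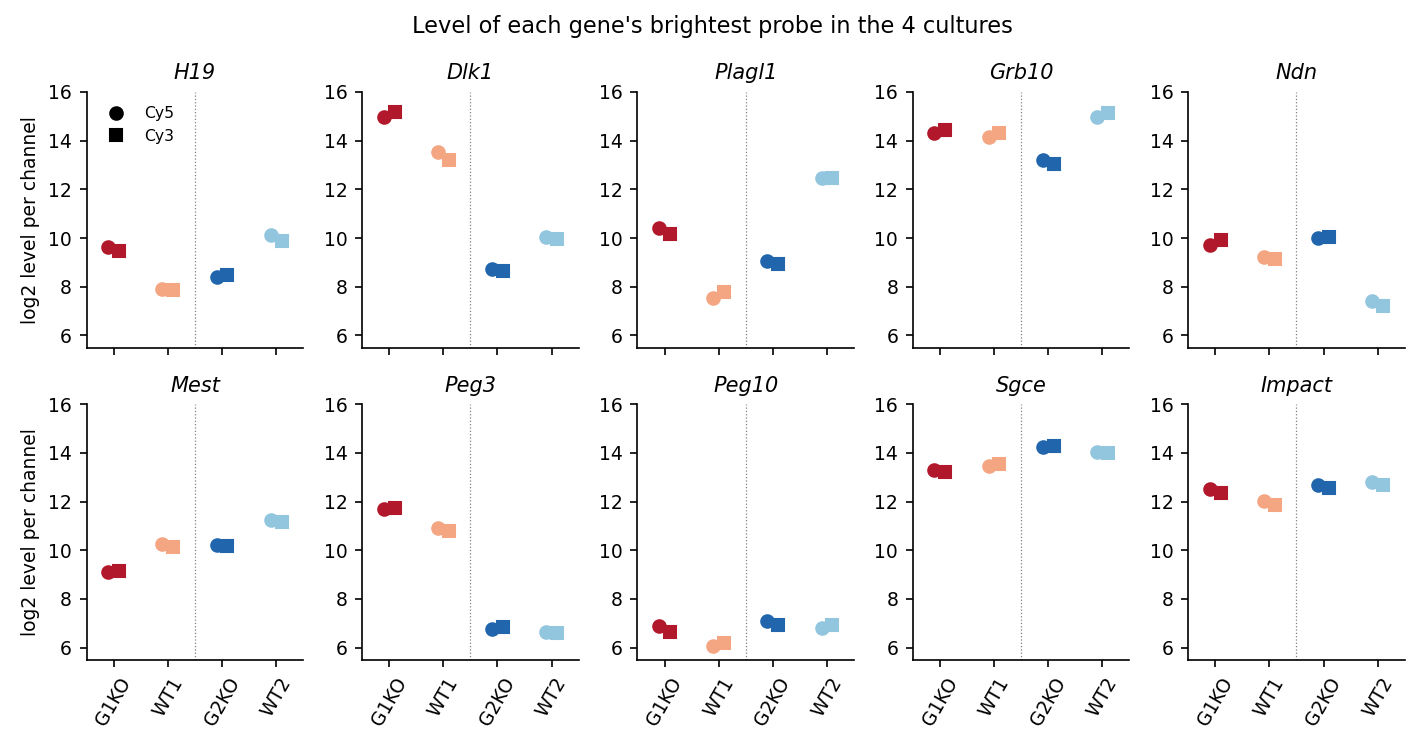
Log2 level per channel (y axis) of each member's brightest probe in the 4 cultures (x axis), with circles for Cy5 and squares for Cy3; the dotted line parts the G1 pair from the G2 pair. Levels can be compared within a panel but not between genes, and Dlk1 and Peg3 are high in the G1 pair and low in the G2 pair.

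The 2 wild-type cultures differed from each other at most of the members. WT2 minus WT1, set across arrays after a common scaling of the channels, was 4.81 for Plagl1, 2.15 for H19, 1.02 for Mest, -1.89 for Ndn, -3.37 for Dlk1 and -4.24 for Peg3 on the log2 scale. These 6 of 10 members differed by at least 2-fold in each dye, against 12.5% of the 17363 genes detected. Grb10, Impact, Peg10 and Sgce differed by 0.81, 0.81, 0.75 and 0.51. For H19 and Plagl1 both knockouts lay between the 2 wild types, with WT2 the highest culture and WT1 the lowest. At 8 of the 10 brightest probes no neighbours in the order of the 4 cultures overlapped, the exceptions being Mest and Peg10.

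**Figure D3:**
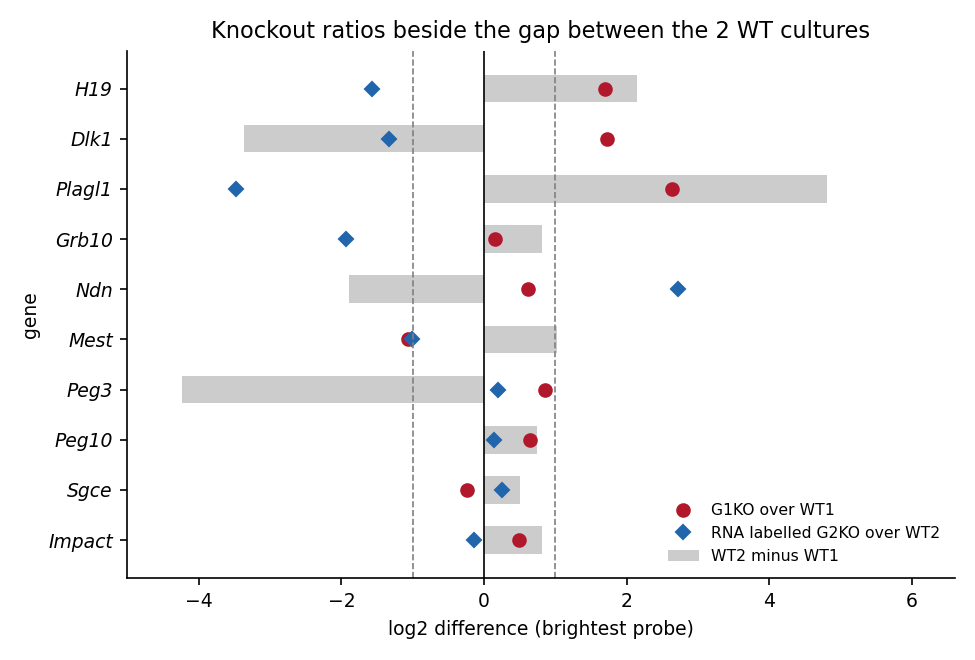
Log2 difference (x axis) between the 2 wild-type cultures, WT2 minus WT1 (grey bars), beside the ratio of G1KO over WT1 (red circles) and of the G2KO-labelled RNA over WT2 (blue diamonds), for each member's brightest probe. Dashed lines mark 2-fold; the grey bar is longer than both knockout ratios for every member but Grb10, Ndn and Mest.

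Markers of other cell types also differed between the cultures. All 6 mesothelial markers were detected in G1KO and WT1, and 2 of 6 in the G2 pair, with Upk3b and Lrrn4 not detected there. In G1KO 5 of the 6 were called lower and 1 higher, and their summed linear level ran from 24200 to 31500 against 192000 to 244000 in WT1. The germ cell marker Ddx4 was lower in G1KO than in WT1 (-5.93) and not detected in the G2 pair. The other 3 germ cell markers, Dazl, Dppa3 and Pou5f1, were not detected in WT1. Of the 12 fibroblast markers, 2 were called higher in G1KO and 6 lower in the G2KO-labelled RNA, among them the receptor Pdgfra (-4.63) and the surface protein Thy1 (-3.22). In bulk RNA, fewer cells of a type and less RNA per cell cannot be told apart. The part of these differences in the ratios of the members was not tested.

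The clusters around the members were examined next. Igf2, the growth factor gene expressed from the paternal copy beside H19, read 11.18 and 11.42 in G1KO, 10.11 and 10.25 in WT1, 9.06 and 8.83 in the G2KO-labelled RNA, and 12.68 and 12.92 in WT2. It followed the order of H19 with respect to WT2 and G1KO, but its lowest culture was the G2KO-labelled RNA. The Igf2 ratio was -3.86 ± 0.01 in the G2KO-labelled RNA, called lower, and 1.12 ± 0.27 in G1KO, not called because 1 array gave 0.92 (SD of 2 arrays). Cdkn1c, a cyclin-dependent kinase inhibitor of the same chromosome arm, was called in both, at 1.39 ± 0.29 and -3.25 ± 0.07 (SD of 2 arrays). Of the 15 genes of the H19 and Igf2 region on the array, 11 were tested in G1KO with 1 called higher, and 10 in the G2KO-labelled RNA with 2 called lower. The shares over all genes were 6.96% and 7.58%.

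In the cluster of Dlk1, the non-coding RNA Rian was called with Dlk1 in both comparisons, at 1.78 ± 0.30 and -1.10 ± 0.06 (SD of 2 arrays), although its dimmer probe gave 0.69 and -0.60. Rian is expressed from the maternal copy and Dlk1 from the paternal copy. Meg3, the maternal non-coding RNA nearest Dlk1, was not called, at 0.43 and -0.87, and its 4 probes ranged from 0.29 to 0.56 in G1KO and from -0.97 to -0.87 in the G2KO-labelled RNA. Mirg and Dio3 were not called.

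Ndn's neighbours were measured in the same way. In the G2KO-labelled RNA 6 of its 7 cluster genes were tested and 0 were called, a number too small to set against the 7.58% of all genes. Snrpn stood at 1.08 ± 0.19 (SD of 2 arrays), with 1 array at 0.94, Atp10a at 0.97 ± 0.07 and Snurf at 0.76 ± 0.28. Magel2, of the same MAGE protein family as Ndn, was well above background on at most 1 array of either RNA there. In G1KO Peg12 was called higher, at 1.45 and 1.55 on the 2 arrays. Beside Grb10, Cobl, an actin nucleator, was called lower in G1KO (-2.14) and stood at -0.72 in the G2KO-labelled RNA, and Ddc was not called in either. In the cluster of Peg10 and Sgce, Ppp1r9a (neurabin, an actin-binding protein) was called in opposite directions, -1.28 in G1KO and 2.26 in the G2KO-labelled RNA, where Pon2 was called higher (1.08). Beside Mest and beside Plagl1 only 1 gene each was tested, Copg2 and Phactr2, and beside Peg3 only Usp29 with, in G1KO, Zim1. None of these 4 was called.

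Of 84 further imprinted genes listed, 74 were on the array. In G1KO 55 of them were tested and 13 called, 8 higher and 5 lower, which is 23.6% against 6.96% of all genes, with a median log2 ratio of 0.07. In the G2KO-labelled RNA 51 were tested and 12 called, 4 higher and 8 lower, which is 23.5% against 7.58%, with a median of 0.02. The 3 furthest rises in G1KO were Xlr4b (3.30), Rasgrf1 (2.19) and Ano1 (1.87), and the 3 furthest falls were the proteoglycan gene Dcn (-4.05), Gatm (-3.52) and the Wilms tumour gene Wt1 (-3.04), which is also on the list of mesothelial markers. Rasgrf1 was not well above background in WT1 and was at least 4.54-fold higher in G1KO. Xlr4b and Ano1 were each well above background on 1 of 2 WT1 arrays. The scanner software's own log2 ratios in G1KO were 6.43 for Xlr4b, 6.12 for Rasgrf1 and 3.96 for Ano1. Xlr4b lies on the X chromosome, and Xist and Y-linked RNA differed between G1KO and WT1. In the G2KO-labelled RNA the rises were Rb1 (2.33), Ppp1r9a (2.26) and Herc3 (1.86), and the falls Igf2 (-3.86), Cdkn1c (-3.25) and the amino acid transporter gene Slc38a4 (-3.14). Some listed genes are imprinted only in placenta or in other species, so their presence here is by name.

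Of the 49 further imprinted genes tested in both comparisons, 7 were called in both. The share of all genes called in both is not given here, so this count has no background. Cdkn1c, Rian, Igf2r and Ano1 were higher in G1KO but lower in the G2KO-labelled RNA, as were H19, Dlk1 and Plagl1, and Ppp1r9a ran the other way. These 5 are 10.2% of the 49, against 1.13% of all genes. WT2 minus WT1 was 2.74 for Cdkn1c, 2.0 for Ano1, 1.86 for Igf2r and 1.02 for Rian, and -0.19 for Ppp1r9a. The part of this gap between the wild types in the opposite calls was not tested. Igf2r, the receptor that clears Igf2, was 1.18 in G1KO and -1.40 in the G2KO-labelled RNA. Gatm and Dcn were lower in both.

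**Figure D4:**
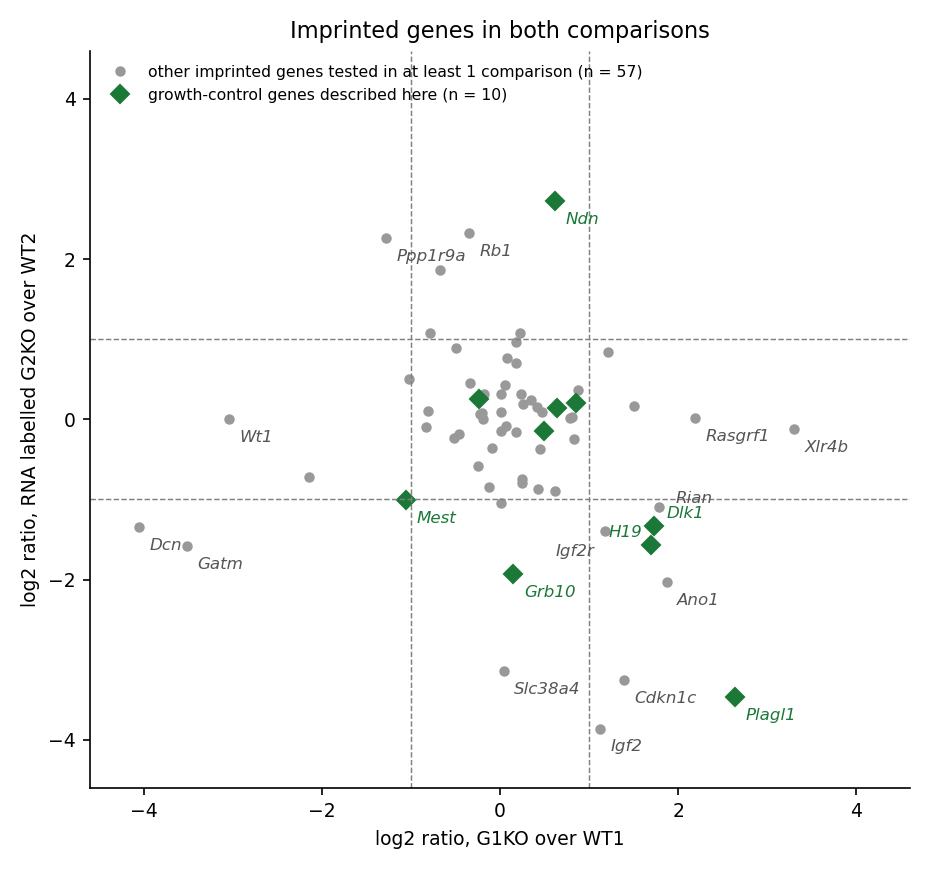
Log2 ratio in G1KO over WT1 (x axis) against the log2 ratio in the G2KO-labelled RNA over WT2 (y axis) for the 10 members (green diamonds) and the 57 other imprinted genes tested in at least 1 comparison (grey circles). Dashed lines mark 2-fold; H19, Dlk1, Plagl1, Rian, Igf2r, Ano1, Cdkn1c and Igf2 lie at the lower right, and Igf2 fell short of 2-fold on 1 G1KO array.

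Genes that write, read or erase the imprint were followed as well. Of 24 such genes on the array, 23 were tested in each comparison, and 0 were called by the 2-fold rule in either, where 6.96% and 7.58% of all genes were called. A list of this size would hold few calls at those shares. Their median log2 ratio was 0.01 in G1KO and -0.02 in the G2KO-labelled RNA. Dnmt1, which copies DNA methylation at each division, was 0.41 and -0.19, and Trim28, a corepressor that protects imprints, 0.46 and 0.24. Uhrf1, which guides Dnmt1 to replicating DNA, was 0.95 ± 0.24 and 1.02 ± 0.19 (SD of 2 arrays), and was called in neither because 1 array of each pair fell short. With the scanner software's own ratio Dnmt3l, a partner of the de novo methyltransferases, was called in G1KO.

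The genes whose levels over the 4 cultures lay nearest to each called member were found over 17232 genes. The measure was the Euclidean distance between their centred log2 levels. Listed genes, such as members, other imprinted genes and markers, were left out, so none of them could appear. With 4 cultures this is a description of these RNAs. Plagl1 lay nearest to Tgfbi, a matrix protein gene, at 0.41, then Mrgprf and Il1rl1. H19 lay nearest to Prtg at 0.33, then Ttyh3 and AK141415. Dlk1 lay nearest to Clca3a2 at 0.87, then Hoxc6 and Adcyap1r1. Grb10 lay nearest to Slit2, a guidance cue, at 0.15, then Rcn3 and Calcrl. Mest lay nearest to Fam214a at 0.16, then Arhgef28 and Chd7, and Ndn to the muscle enolase gene Eno3 at 0.30, then Phlda1 and Ifi204.

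Median centring of the arrays in place of loess, which leaves the dye trend of each array in place, left 2 of the 10 members called in G1KO, H19 and Plagl1, and 2 in the G2KO-labelled RNA, Plagl1 and Ndn. The mean ratios of the lost calls stayed near the reported ones, at 1.75 for Dlk1 and -1.01 for Mest in G1KO, and -1.52 for H19, -1.27 for Dlk1 and -1.78 for Grb10 in the G2KO-labelled RNA. A 4-fold rule left Plagl1 alone in G1KO and Plagl1 with Ndn in the G2KO-labelled RNA. Over all genes, median centring left 630 of 16534 called in G1KO and 743 of 16487 in the G2KO-labelled RNA. The 4-fold rule left 313 of 16534 and 391 of 16487.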

How the data were processed

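Total RNA of 4 MEF cultures was measured on 4 two-colour arrays, paired by genotype and dye-swapped. The authors read the scans with Feature Extraction, Agilent's spot-finding software, whose version is 10.5.1.1 in the file headers and 9.1 in the labels. The deposited files hold each channel's mean and background median intensity, a log10 ratio (Cy5 over Cy3), and flags. A series table deposited by the authors holds log10 ratios that match the scanner ratios. Here, intensities were corrected in limma 3.58.1 (R 4.3.3) by normexp with an offset of 50 and normalized by loess within arrays. Control spots and outlier spots were left out, and spots of a probe were averaged. The offset draws the ratios of dim probes towards 0. Ratios were turned to knockout over WT and averaged over the pair. Levels came from quantile scaling of the average intensities (Aquantile). A gene stood by its brightest probe. The script was tested on simulated data.

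The named genes were all members, Ccng1 and Ccng2, imprinted genes at the members' clusters, list genes called in both comparisons, the 3 furthest called rises and falls of the imprinted list, and the 3 nearest genes to each called member. Sox2, Gpm6b, Ddx4, Fabp4, Pdgfra, Thy1 and other markers, with Dnmt1, Dnmt3l, Trim28 and Uhrf1, were named after their values were seen. Members and lists were chosen with earlier results of these data known. Alternatives were the scanner ratio, the series table, other background and normalization settings, filters, probes, a 4-fold rule and each array alone. Probe names were updated through accessions in the RefSeq gene table (24375 probes) or older symbols (2426), and 8072 kept the file's name. Promoters are RefSeq's, in another build (GRCm38.p6) than the probe positions (mm8). The number of arrays limits the precision. Some genes of the neural and glial marker list are not reported here.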

Additional observations from a re-analysis of the deposited data

Results flagged for a closer look

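H19, Dlk1 and Plagl1 moved in opposite directions in the 2 comparisons on every array, and this difference was not tested because each genotype is 1 culture. H19 had log2 ratios of 1.69 in G1KO over WT1 and -1.57 in the G2KO-labelled RNA over WT2. Dlk1 had 1.73 and -1.33, and Plagl1 2.64 and -3.47.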

How the results depend on the processing

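None of the 9 called member ratios changed sign under the 6 alternatives that recompute the ratio, where 30 of 54 values lay within 1 SD of the reported value and 24 did not. The other alternatives leave the ratio as it is or take 1 of its arrays. Among the 6, the scanner's ratio and the series table hold matching values, so they amount to 1 check. The count of called members, 4 in G1KO and 5 in the G2KO-labelled RNA, became 2 and 2 with median centring and 1 and 2 with a 4-fold rule, and stayed between 4 and 6 otherwise. The calls that median centring ended were Dlk1 and Mest in G1KO and H19, Dlk1 and Grb10 in the G2KO-labelled RNA. Peg10 was called in G1KO with the scanner's ratio, the series table and an offset of 10. The Dlk1 call in the G2KO-labelled RNA was also lost with the median of its detected probes.

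Over all genes, 1150 and 1249 were called, and 2055 and 2397 with the scanner's ratio, 2052 and 2394 with the series table, 630 and 743 with median centring, and 313 and 391 with a 4-fold rule. Of the other imprinted genes, 13 and 12 were called, and 22 and 22 with the scanner's ratio or with the series table, 8 and 8 with median centring, 16 and 18 with an offset of 10, and 5 and 5 with a 4-fold rule. The maintenance genes went from 0 to 1 called in G1KO, Dnmt3l, with the scanner's ratio or the series table, and from 0 to 1 in each comparison on the array with knockout RNA in Cy3 alone, Uhrf1. For these 2 lists, the alternatives other than the scanner ratio and the filters on dim probes of the imprinted list were chosen after seeing the data. The number of members spanning at least 2-fold over the cultures was 7, and 7 to 8 under the alternatives. The cause of these changes was not tested, except that a 4-fold rule is stricter by construction. Dim probes such as Peg10 and the G2 levels of Peg3 are limited by signal over background. No paired analysis was possible because each genotype is 1 culture and the dye-swapped arrays are 1 replicate.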
